A study of Mus musculus with 7 samples.

Results

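The 32 genes described here encode collagens and other proteins of the extracellular matrix, together with enzymes and a signal that shape it. They were chosen by gene name from a list of collagen, matrix and matrix-modifying genes, and all 32 were found among the 54532 genes of the deposited tables. Of these, 8 encode interstitial collagen chains, 6 encode collagen chains of basement membranes, and 18 encode glycoproteins, proteoglycans, elastic fibre proteins, crosslinking enzymes, proteases, protease inhibitors and transforming growth factor beta 1. The filter on low counts was passed by 31 members and by 15351 genes in all. Fap, a serine protease of activated fibroblasts, did not pass it, with between 1 and 8 counts per library.

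Expression was measured by bulk RNA-seq of kidney tissue of male C57BL/6J mice aged 6 to 8 weeks. All 7 libraries came from mice given cisplatin, a platinum anticancer drug toxic to the renal tubules, at 20 mg/kg through the tail vein. By the labels, 4 libraries are saline and 3 are DXZ, and DXZ, which they do not spell out, was given at 40 mg/kg by the same vein from 30 min before cisplatin and again each 24 h over 3 days. No transgene or deletion was named, and no kidney without cisplatin was analysed here. The labels do not state that libraries of a group came from separate animals, so p-values measure the spread between these samples, which may be technical.

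The extracellular matrix of the kidney has an interstitial and a basement membrane part. Interstitial fibroblasts and pericytes make fibrillar collagens such as types I, III and V and the beaded filaments of collagen VI, and these accumulate in fibrosis. Basement membranes are sheets of collagen IV and laminin beneath tubule, endothelial and glomerular cells. The collagen IV chains alpha 1 and alpha 2 occur in basement membranes throughout the kidney, while alpha 3 and alpha 4, joined with alpha 5, form the mature network of the glomerular filter and of some tubules.

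Total counts ranged from 16058157 to 18133736 per library, and 20803 to 21827 genes had a count. DXZ 1 stood apart from DXZ 2 and DXZ 3 for these genes. It was the highest of the 7 libraries for 23 of the 31 tested members, against 18.7% of all tested genes, and DXZ 3 was the lowest for 24, against 17%. Members took 0.533% of counts in DXZ 1, 0.197% and 0.175% in DXZ 2 and DXZ 3, and 0.196% to 0.364% in the saline libraries. The comparison of each tested member is therefore given with and without DXZ 1. The fit without it was chosen because an earlier analysis of these data had found that library apart. The p-values of that fit thus depend on a choice made from the same data and are descriptive.

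Of the 31 tested members, 3 changed by edgeR's quasi-likelihood test, and all 3 were basement membrane collagens. Col18a1 rose, and Col4a3 and Col4a4 fell, in DXZ relative to saline. Among all tested genes 5.56% changed, 3.24% rising and 2.31% falling, so the count is no result about the list as a whole. The median log2 fold change was -0.17 over the interstitial collagens, -0.03 over the basement membrane collagens, -0.12 over the other members and 0.01 over all tested genes. With DXZ 1 left out, 8 members changed, 1 higher and 7 lower, against 10.1% of all genes tested in that fit (5.07% higher, 5.01% lower). The medians were then -2.64 for the interstitial collagens, -0.45 for the basement membrane collagens and -1.35 for the other members, against -0.0052 for all genes. With all 7 libraries the interstitial median also depended on the method: it was -1.57 by limma-voom with sample quality weights and -0.98 by limma on log2 of FPKM plus 0.1. It was above 0 when saline 2 (0.13), DXZ 2 (0.21) or DXZ 3 (0.32) was left out.

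The same 3 members were those whose DXZ and saline libraries did not overlap, while 24.1% of all tested genes had groups that did not overlap (12.8% higher and 11.3% lower in DXZ). Without DXZ 1, 24 members did not overlap, 23 of them lower in DXZ, against 22% of genes lower and 20.6% higher in that comparison. Both DXZ 2 and DXZ 3 thus lay below all 4 saline libraries for most members, whereas DXZ 1 did so only for Col4a3 and Col4a4.

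**Figure D1:**
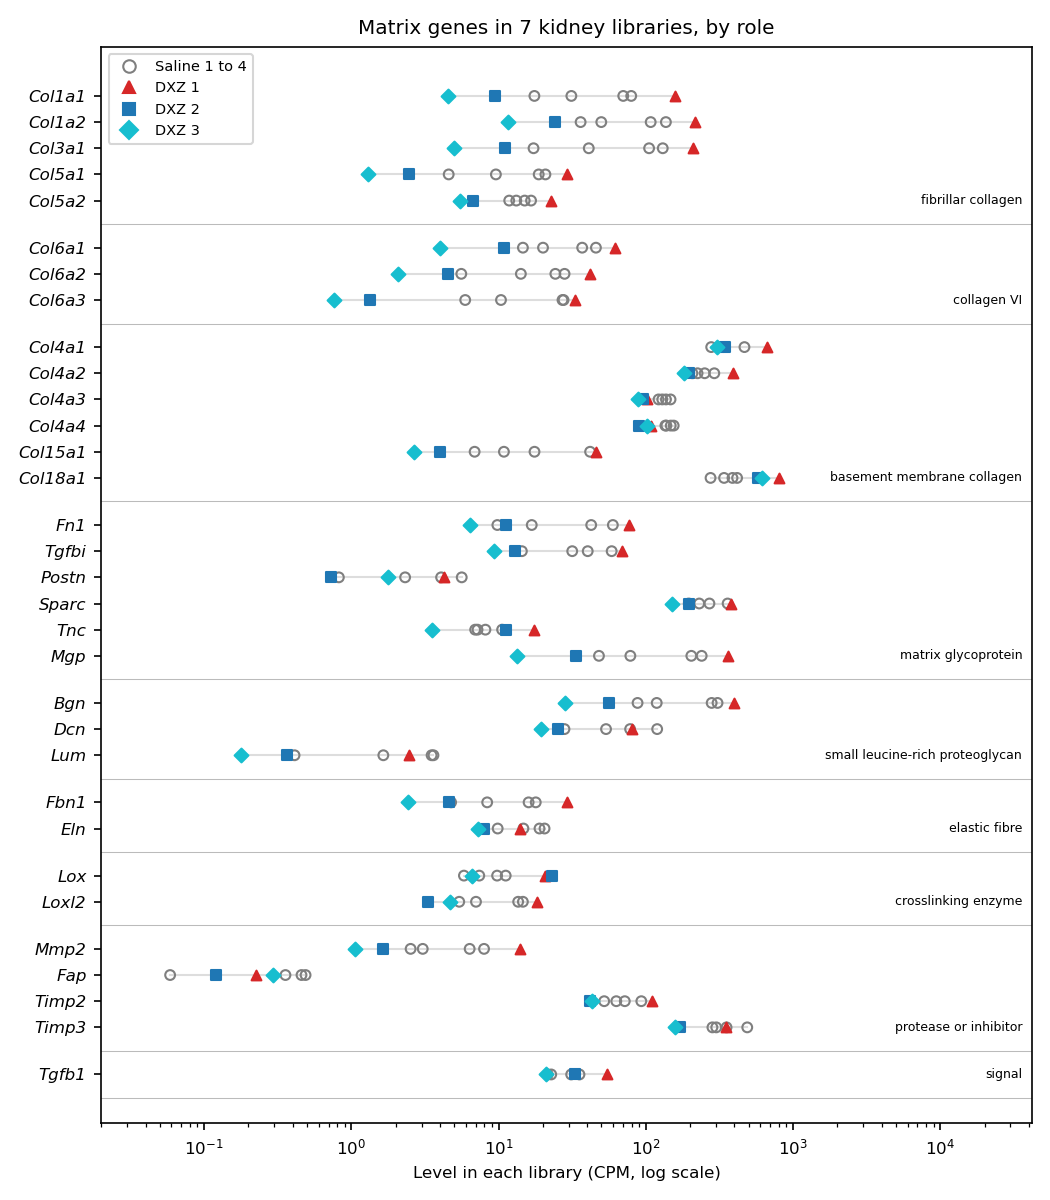
Level of each of the 32 members in each library in CPM (log axis), grouped by role; open circles are saline 1 to 4 and filled symbols DXZ 1, 2 and 3, and the grey line spans all 7. For all 8 fibrillar and type VI collagen genes DXZ 1 is the rightmost symbol and DXZ 2 and DXZ 3 the leftmost, while for Col4a3, Col4a4 and Col18a1 the 3 DXZ libraries lie together on 1 side of saline.

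The fibrillar collagens differed several-fold between libraries of 1 group. Levels are given in CPM, which are counts scaled to the TMM-adjusted total of the library, a positive log2 fold change means a higher level in DXZ, and p-values are adjusted over all tested genes with a threshold of 0.05. Col1a1 and Col1a2 encode the alpha 1 and alpha 2 chains of collagen I, the main fibrillar collagen of scar tissue. Col1a1 stood at 70.3, 79.6, 31.2 and 17.5 CPM in saline 1 to 4 and at 158, 9.43 and 4.55 CPM in DXZ 1 to 3. Col1a2 stood at 108, 137, 49.8 and 36.1 CPM in saline and at 215, 24.2 and 11.5 CPM in DXZ. For both genes DXZ 1 was above, and DXZ 2 and DXZ 3 were below, every saline library, so the groups overlapped. The log2 fold change of Col1a1 was 0.21 (SE 1.08, adjusted p = 0.929 by edgeR) with all libraries and -2.83 (SE 0.69, adjusted p = 0.0464 by edgeR) without DXZ 1. That of Col1a2 was 0.02 (SE 0.92) and, without DXZ 1, -2.21 (adjusted p = 0.0606 by edgeR).

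Col3a1 encodes collagen III, which forms thin reticular fibres with collagen I. It stood at 130.4, 105, 41.0 and 17.3 CPM in saline 1 to 4 and at 209, 11.1 and 4.96 CPM in DXZ 1 to 3. The highest DXZ library was 42.0 times the lowest, and the highest saline library 7.54 times the lowest. Its log2 fold change was 0.03 (SE 1.17) with all libraries and -3.20 (adjusted p = 0.0585 by edgeR) without DXZ 1, so neither fit called it.

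Col5a1 and Col5a2 encode chains of collagen V, which sits inside collagen I fibrils and sets their width. Col5a1 stood at 20.8, 18.7, 9.59 and 4.58 CPM in saline and at 29.1, 2.48 and 1.30 CPM in DXZ. Col5a2 stood at 16.6, 15.0, 13.2 and 11.8 CPM in saline and at 22.8, 6.71 and 5.49 CPM in DXZ. The highest saline library was 1.41 times the lowest for Col5a2, the smallest such ratio among the 8 interstitial genes, and DXZ 1 again lay above and DXZ 2 and DXZ 3 below all of them. Both fell in the fit without DXZ 1, with log2 fold changes of -2.83 for Col5a1 (adjusted p = 0.0449 by edgeR) and -1.21 for Col5a2 (adjusted p = 0.0197 by edgeR). With all libraries they were -0.29 (SE 0.97) and -0.28 (SE 0.46).

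Collagen VI, which links fibrils to cells and basement membranes, followed the same order of libraries. Col6a1 stood at 37.0, 45.8, 20.0 and 14.6 CPM in saline and at 62.2, 10.9 and 4.02 CPM in DXZ. Col6a2 stood at 24.3, 28.1, 14.2 and 5.58 CPM in saline and at 42.0, 4.54 and 2.07 CPM in DXZ. Col6a3, whose product is the longest chain of the type VI trimer, stood at 27.6, 27.2, 10.4 and 5.94 CPM in saline and at 33.1, 1.33 and 0.768 CPM in DXZ. The log2 fold changes with all libraries were -0.19, -0.15 and -0.60, with adjusted p-values by edgeR of 0.913, 0.941 and 0.788. Without DXZ 1, Col6a3 fell (log2 fold change -4.08, SE 0.81, adjusted p = 0.030 by edgeR), while Col6a1 and Col6a2 had -1.97 and -2.45 and did not pass (adjusted p = 0.0688 and 0.0611).

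None of the 8 interstitial collagen genes passed edgeR's test with all 7 libraries, none had an unadjusted p under 0.05 (25.4% of all tested genes did), and DESeq2 and limma-voom also called 0. All 8 had DXZ 1 above and both other DXZ libraries below every saline library, an order held by 3.93% of all tested genes and by 17 of the 31 tested members. In all 8, saline 1 and 2 were above saline 3 and 4, as in 23.3% of all tested genes. The median ratio of the highest to the lowest library was 4.50 within saline and 20.2 within DXZ for these 8 genes, against 1.37 and 1.38 for all tested genes. Their summed share of all counts was 0.0109% to 0.0468% in saline, 0.0842% in DXZ 1, and only 0.00689% and 0.00335% in DXZ 2 and DXZ 3.

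The promoter sequences of a few interstitial collagen genes are shown because their transcripts had 1 order of groups across the 7 libraries. They are the 250 bases before the start site, from RefSeq on GRCm38.p6, 5′ to 3′ on the strand of the gene, with capitals for the searched motifs on either strand. The motifs were the TATA box TATAAA, the CCAAT box CCAAT and the GC box GGGCGG. Col3a1 lies on the plus strand at chr1:45311288-45311537, Col5a1 on the plus strand at chr2:27886175-27886424 and Col6a3 on the minus strand at chr1:90843972-90844221.
Col3a1: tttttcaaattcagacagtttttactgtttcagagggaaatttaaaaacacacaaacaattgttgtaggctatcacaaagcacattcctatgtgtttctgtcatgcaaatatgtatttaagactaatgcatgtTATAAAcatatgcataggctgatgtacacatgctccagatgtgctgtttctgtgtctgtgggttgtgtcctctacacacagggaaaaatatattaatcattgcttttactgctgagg
Col5a1: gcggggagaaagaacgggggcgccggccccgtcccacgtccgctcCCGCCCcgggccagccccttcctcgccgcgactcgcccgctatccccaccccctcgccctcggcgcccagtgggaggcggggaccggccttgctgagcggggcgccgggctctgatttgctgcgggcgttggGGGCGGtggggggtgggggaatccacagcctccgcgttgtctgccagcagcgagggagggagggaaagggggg
Col6a3: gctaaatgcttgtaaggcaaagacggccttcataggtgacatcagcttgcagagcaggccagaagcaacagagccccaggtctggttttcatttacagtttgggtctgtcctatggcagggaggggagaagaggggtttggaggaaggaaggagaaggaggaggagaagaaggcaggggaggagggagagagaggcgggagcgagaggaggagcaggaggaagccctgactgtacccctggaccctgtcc

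The Col3a1 window holds 1 TATAAA and has 35.2% G and C, the Col5a1 window holds 2 GC boxes and has 76.4%, and the Col6a3 window holds none of the 3 motifs and has 57.2%. The median over 32851 windows of this length in the table was 52.4%. TATAAA was found in 12.4% of those windows, CCAAT in 33.9% and GGGCGG in 32.7%, counting both strands. Windows were matched for 20 of the 32 members, 24 windows in all, of which 4, 5 and 14 held the motifs in that order. Member windows on chromosome 18, where Lox lies, were left out, while the 32851 windows were not limited in this way. The windows of Tnc overlap and hold the same TATAAA and GC box, so these sites were counted in each. A match is a description of the letters and not a binding site. The 3 printed windows share none of these motifs, while the window of Col1a2, which had the same order of libraries, holds 2 GC boxes as that of Col5a1 does. Whether these motifs bear on the order of libraries was not tested.

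The basement membrane collagens varied far less between libraries than the interstitial ones. Their median ratio of the highest to the lowest library was 1.46 within saline and 1.76 within DXZ. Per length, in FPKM (reads scaled to gene length and library size), the 6 chains summed to 146, 193, 167 and 148 in saline 1 to 4 and to 283, 178 and 174 in DXZ 1 to 3. The 8 interstitial chains summed to 50.3, 53.4, 22.5 and 13.6 FPKM in saline and to 88.4, 8.69 and 4.06 FPKM in DXZ. The interstitial sum was therefore 0.344, 0.276, 0.135 and 0.0923 times the basement membrane sum in saline and 0.313, 0.0488 and 0.0234 times in DXZ. This ratio in DXZ 1 lay within the saline range, and in DXZ 2 and DXZ 3 it lay below it.

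Col18a1 encodes the chain of collagen XVIII, a heparan sulfate proteoglycan of basement membranes whose C-terminal fragment is endostatin. It stood at 275, 417, 388 and 340.2 CPM in saline 1 to 4 and at 797, 581 and 612 CPM in DXZ 1 to 3. All 3 DXZ libraries were above all 4 saline libraries. Col18a1 rose with a log2 fold change of 0.90 (SE 0.18, adjusted p = 0.0338 by edgeR), from 50.4 ± 8.70 FPKM (SD, n = 4) to 93.6 ± 15.2 FPKM (SD, n = 3). Without DXZ 1 the log2 fold change was 0.75 (adjusted p = 0.0413 by edgeR). In the other 6 fits that left out 1 library it kept its direction and did not pass, with adjusted p-values by edgeR from 0.0515 without saline 1 to 0.105 without saline 4.

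The Col18a1 locus, at chr10:77052178-77166548 on the minus strand, overlaps Slc19a1, the reduced folate carrier gene, on the other strand. Annotated exons of the 2 genes share 0 of the 7021 exon bases of Col18a1, and Slc19a1 had a log2 fold change of -0.03 (adjusted p = 0.954 by edgeR). Whether reads were counted by strand is not given in the sources used here.

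Col4a3 and Col4a4 encode the alpha 3 and alpha 4 chains of collagen IV, whose loss causes Alport syndrome. Col4a3 stood at 122, 129, 137 and 147 CPM in saline 1 to 4 and at 102, 96.4 and 88.5 CPM in DXZ 1 to 3. Col4a4 stood at 138, 136, 148 and 155 CPM in saline and at 108, 89.7 and 103 CPM in DXZ. For both genes all 3 DXZ libraries, DXZ 1 included, were below all 4 saline libraries. Col4a3 fell with a log2 fold change of -0.49 (SE 0.10, adjusted p = 0.0381 by edgeR), from 13.4 ± 1.12 FPKM (SD, n = 4) to 9.50 ± 0.593 FPKM (SD, n = 3). Col4a4 fell with a log2 fold change of -0.52 (SE 0.10, adjusted p = 0.0332 by edgeR), from 13.5 ± 0.870 FPKM (SD, n = 4) to 9.37 ± 0.789 FPKM (SD, n = 3). Without DXZ 1 the log2 fold changes were -0.53 and -0.58, with adjusted p-values by edgeR of 0.0351 and 0.0290.

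Neither call held when any 1 of saline 2, saline 3, saline 4, DXZ 2 or DXZ 3 was left out, with adjusted p-values by edgeR of up to 0.108 for Col4a3 and 0.0981 for Col4a4 and log2 fold changes between -0.44 and -0.55. Without saline 1, Col4a3 passed (adjusted p = 0.0467) and Col4a4 did not (adjusted p = 0.0510). The ratio of Col4a3 to Col4a4 in FPKM was 0.942 to 1.01 in saline and 0.917 to 1.14 in DXZ, so both chains stood at nearly the same level per length in every library.

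Podocytes, the cells that make these chains in the glomerulus, had marker levels that moved in part with them. The 8 podocyte markers, none of them at 0 in any library, summed to 423 to 586 CPM in saline and to 485, 398 and 331 CPM in DXZ 1 to 3. None of the 8 passed edgeR's test, 4 had an unadjusted p under 0.05, DESeq2 and limma-voom each called 3 lower, and all 8 had a negative log2 fold change. Over all tested genes 25.4% had an unadjusted p under 0.05. Without DXZ 1, edgeR called 3 of the 8 lower, Ptpro, Clic3 and Thsd7a, with log2 fold changes of -0.90, -1.77 and -0.94 (adjusted p = 0.0298, 0.0177 and 0.0277). These 3 lay below all saline libraries in all 3 DXZ libraries, DXZ 1 included, as Col4a3 and Col4a4 did. In the fit without DXZ 1, 5.01% of all genes were called lower. With all libraries, 11.3% of tested genes lay below saline in this way. The podocyte sum, of which Podxl made up the largest share, lay within the saline range in DXZ 1. The part of podocyte RNA in the fall of these 2 genes was not tested. In bulk tissue, fewer cells of a type and less RNA per cell cannot be told apart.

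The sequences at these basement membrane loci are shown for the 2 loci with changed genes. Col4a3 and Col4a4 have 71 bases between their starts on chromosome 1 and are transcribed away from each other. The whole stretch between their starts, chr1:82586850-82586920, is printed on the minus strand, that of Col4a4. For Col18a1 the stretch before its upstream start outside annotated exons, chr10:77166549-77166780, is printed on the minus strand. Both are from RefSeq on GRCm38.p6, with motifs in capitals as above.
Col4a4 and Col4a3: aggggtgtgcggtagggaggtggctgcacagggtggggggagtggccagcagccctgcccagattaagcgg
Col18a1: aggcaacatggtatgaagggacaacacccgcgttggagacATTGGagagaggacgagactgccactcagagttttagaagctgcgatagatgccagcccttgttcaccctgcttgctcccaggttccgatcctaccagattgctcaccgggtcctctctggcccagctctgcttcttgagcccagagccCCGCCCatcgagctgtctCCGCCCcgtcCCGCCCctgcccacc

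The stretch between Col4a4 and Col4a3 holds none of the 3 motifs. The Col18a1 stretch holds 1 CCAAT box, printed as its reverse complement ATTGG, and 3 GC boxes, printed as CCGCCC. Col18a1 rose while Col4a3 and Col4a4 fell, and the loci are on different chromosomes.

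**Figure D2:**
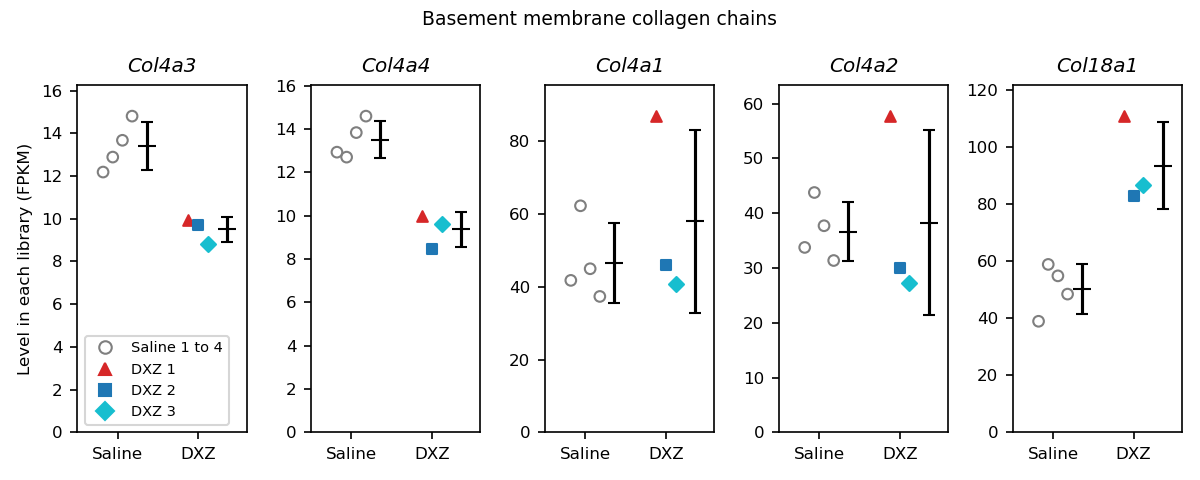
Level per length (FPKM, linear axes from 0, each panel with its own scale) of 5 basement membrane collagen genes in saline 1 to 4 (open circles) and DXZ 1, 2 and 3 (filled symbols); black bars are the group mean and SD. All DXZ symbols are below all saline circles for Col4a3 and Col4a4 and above them for Col18a1, while for Col4a1 and Col4a2 only DXZ 1 leaves the upper end of the saline range.

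Col4a1 and Col4a2, which encode the most widespread collagen IV chains, did not pass the test. Col4a1 stood at 313, 468, 337 and 278 CPM in saline 1 to 4 and at 663, 343 and 306 CPM in DXZ 1 to 3. Col4a2 stood at 225, 292, 251 and 207 CPM in saline and at 391, 197 and 181 CPM in DXZ. DXZ 1 was the highest library for both, and DXZ 2 and DXZ 3 lay within the saline range of Col4a1 and just below that of Col4a2. The log2 fold changes were 0.32 (SE 0.29, adjusted p = 0.532 by edgeR) and 0.07 (SE 0.27, adjusted p = 0.898 by edgeR). Without DXZ 1 they were -0.10 (adjusted p = 0.768 by edgeR) and -0.36 (adjusted p = 0.163 by edgeR).

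In FPKM, Col4a1 and Col4a2 together were 3.01, 4.14, 3.00 and 2.34 times Col4a3 and Col4a4 together in saline and 7.24, 4.18 and 3.69 times in DXZ. The lowest DXZ library overlapped the highest saline library in this ratio. Col4a1 and Col4a2 are also transcribed in opposite directions, with annotated spans that share 22 bases at their starts on chromosome 8, which is 0.295% of the exon bases of Col4a1.

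Col15a1, the chain of collagen XV, a basement membrane proteoglycan of vessels and interstitium, behaved in its order of libraries like the interstitial collagens. It stood at 41.8, 17.5, 10.9 and 6.88 CPM in saline 1 to 4 and at 45.7, 3.99 and 2.66 CPM in DXZ 1 to 3. DXZ 1 was above and DXZ 2 and DXZ 3 were below every saline library. The log2 fold change was -0.14 (SE 0.99, adjusted p = 0.948 by edgeR) with all libraries and -2.54 (adjusted p = 0.0728 by edgeR) without DXZ 1.

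**Figure D3:**
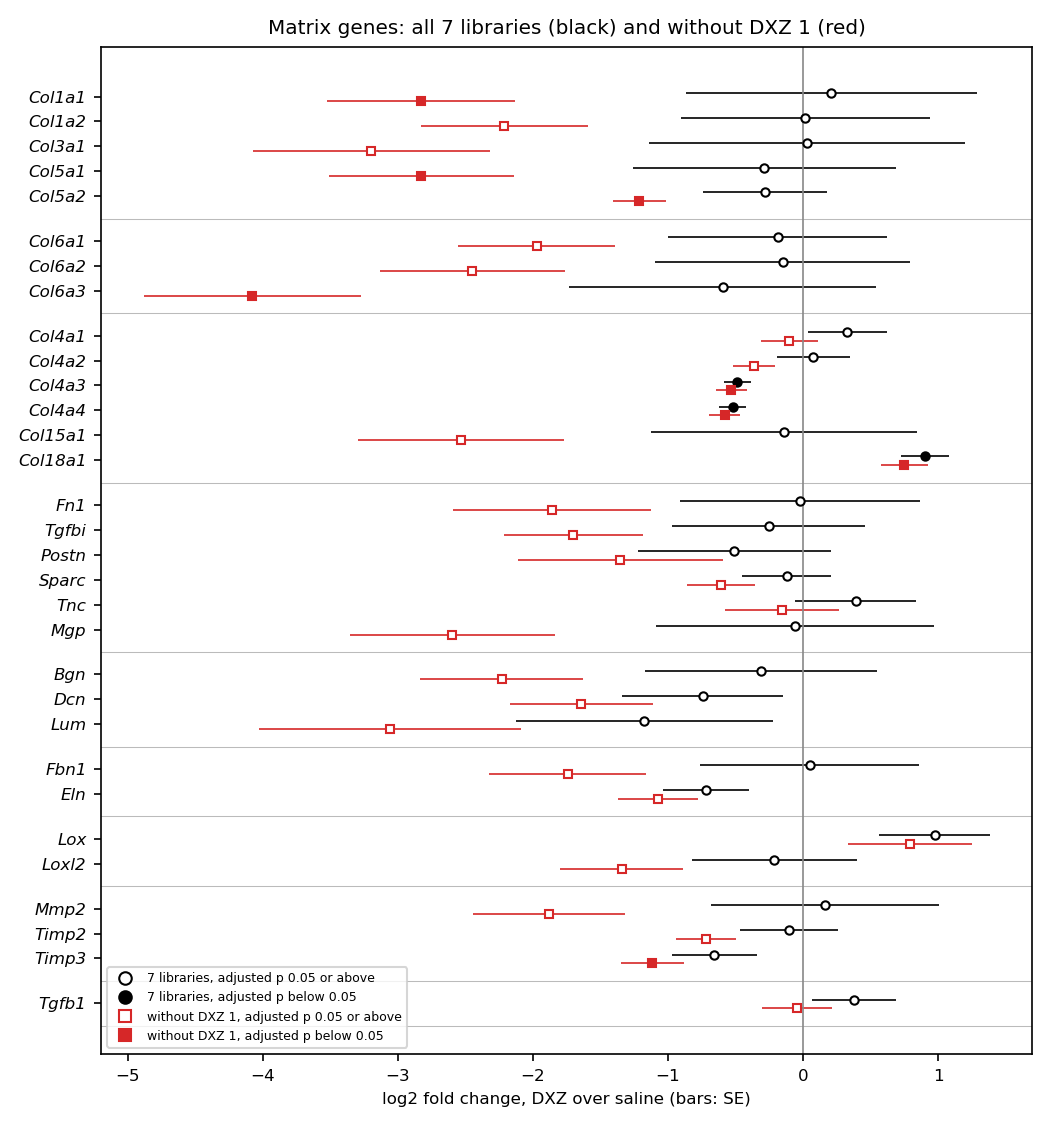
Log2 fold change of DXZ over saline with its SE for the 31 tested members, with all 7 libraries (black circles) and without DXZ 1 (red squares); filled symbols have an edgeR adjusted p below 0.05. The red squares of the 8 interstitial collagens lie between -4.08 and -1.21 while their black circles lie between -0.60 and 0.21, and Col4a3, Col4a4 and Col18a1 are filled in both fits.

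The matrix glycoproteins had no gene that passed with or without DXZ 1. Fn1, fibronectin, on which collagen fibrils assemble, stood at 59.7, 42.6, 16.8 and 9.81 CPM in saline 1 to 4 and at 77.3, 11.3 and 6.44 CPM in DXZ 1 to 3. Its log2 fold change was -0.02 (SE 0.89, adjusted p = 0.99 by edgeR), and -1.86 (adjusted p = 0.135 by edgeR) without DXZ 1. Mgp, matrix Gla protein, an inhibitor of calcification, was the member with the highest mean per length in saline, at 119 ± 78.1 FPKM (SD, n = 4), and stood at 113 ± 161 FPKM (SD, n = 3) in DXZ. It ranged from 48.1 to 239.6 CPM in saline and stood at 362, 33.8 and 13.3 CPM in DXZ 1 to 3. For Mgp, DXZ 1 was above and the other DXZ libraries were below all saline libraries, while for Fn1 DXZ 2 was within the saline range. The log2 fold change of Mgp was -0.06 (SE 1.03, adjusted p = 0.979 by edgeR) with all libraries and -2.60 (SE 0.76, adjusted p = 0.067 by edgeR) without DXZ 1.

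Sparc, osteonectin, a collagen-binding protein, stood at 69.4 ± 18.3 FPKM in saline and 63.4 ± 31.1 FPKM in DXZ (SD, n = 4 and 3), with a log2 fold change of -0.12 (adjusted p = 0.857 by edgeR). Tgfbi, a collagen-binding protein induced by transforming growth factor beta, had -0.25 (adjusted p = 0.861 by edgeR), and Postn, periostin, a fibroblast matrix protein, had -0.51 (adjusted p = 0.705 by edgeR). Postn was low, between 0.726 and 5.62 CPM. Tnc, tenascin C, a glycoprotein of wounds, had 0.39 (adjusted p = 0.638 by edgeR) and stood at 17.5, 11.2 and 3.54 CPM in DXZ 1 to 3 against 6.94 to 10.6 CPM in saline. Tnc in DXZ 2 was above all saline libraries, unlike the collagens of the interstitium. Without DXZ 1 the log2 fold changes were -0.61 for Sparc, -1.70 for Tgfbi and -1.35 for Postn, and that of Tnc turned to -0.16. None of these 4 passed in that fit, and the lowest adjusted p by edgeR was 0.0733, for Tgfbi.

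The small leucine-rich proteoglycans bind collagen fibrils and growth factors. Bgn, biglycan, stood at 280.2, 307, 119 and 87.9 CPM in saline 1 to 4 and at 395, 56.5 and 28.1 CPM in DXZ 1 to 3, the same order of groups as the fibrillar collagens. Dcn, decorin, stood at 78.3, 119, 53.7 and 28.0 CPM in saline and at 80.4, 25.2 and 19.5 CPM in DXZ, with DXZ 1 inside the saline range. Lum, lumican, stood between 0.411 and 3.61 CPM in saline and at 2.48, 0.363 and 0.177 CPM in DXZ. Their log2 fold changes were -0.31, -0.74 and -1.17, with adjusted p-values by edgeR of 0.859, 0.476 and 0.480. Without DXZ 1 they were -2.23, -1.64 and -3.06, and none passed (lowest adjusted p = 0.0573 by edgeR).

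Of the elastic fibre genes, Fbn1, fibrillin 1, had a log2 fold change of 0.05 (adjusted p = 0.979 by edgeR) and Eln, elastin, one of -0.72 (adjusted p = 0.199 by edgeR). Eln stood at 9.86, 19.0, 20.5 and 14.8 CPM in saline and at 14.0, 7.92 and 7.26 CPM in DXZ. Saline 1 was the lowest saline library for Eln, while it was the highest or next to the highest for each of the 8 interstitial collagens. Without DXZ 1 the log2 fold changes were -1.74 for Fbn1 and -1.08 for Eln (adjusted p = 0.0923 and 0.0598 by edgeR).

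Lox and Loxl2 encode lysyl oxidases, which crosslink collagen and elastin. Lox stood at 7.39, 11.2, 9.77 and 5.82 CPM in saline 1 to 4 and at 20.7, 22.9 and 6.61 CPM in DXZ 1 to 3. Its log2 fold change was 0.97 (SE 0.41, adjusted p = 0.183 by edgeR), the highest among the members, and 0.79 (adjusted p = 0.279 by edgeR) without DXZ 1. DXZ 1 and DXZ 2 were above all saline libraries and DXZ 3 was within their range, so Lox did not follow the order seen in the collagens it acts on. Loxl2 had -0.21 (adjusted p = 0.864 by edgeR) and, without DXZ 1, -1.34 (adjusted p = 0.0968 by edgeR).

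Among proteases and inhibitors, Mmp2, gelatinase A, had a log2 fold change of 0.16 (adjusted p = 0.930 by edgeR) and stood at 14.0, 1.63 and 1.06 CPM in DXZ 1 to 3 against 2.53 to 7.97 CPM in saline. Without DXZ 1 the log2 fold change of Mmp2 was -1.88 (adjusted p = 0.0722 by edgeR). Timp2 and Timp3 encode tissue inhibitors of metalloproteinases, and Timp3 is bound to the matrix. Timp3 stood at 489, 354, 283 and 301 CPM in saline 1 to 4 and at 349, 171 and 158 CPM in DXZ 1 to 3. With all libraries the log2 fold change was -0.66 (SE 0.31, adjusted p = 0.234 by edgeR), and without DXZ 1 it fell by 1.12 on the log2 scale (adjusted p = 0.0345 by edgeR). Timp2 had -0.10 (adjusted p = 0.891 by edgeR) and, without DXZ 1, -0.72 (adjusted p = 0.0750 by edgeR).

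Tgfb1, the growth factor that drives matrix synthesis in fibroblasts, stood at 31.1, 35.4, 22.8 and 21.6 CPM in saline 1 to 4 and at 54.2, 32.8 and 20.9 CPM in DXZ 1 to 3. Its log2 fold change was 0.38 (SE 0.31, adjusted p = 0.496 by edgeR), and -0.05 (adjusted p = 0.921 by edgeR) without DXZ 1. DXZ 2 was within the saline range and DXZ 3 just under it.

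The summed markers of the cells that hold or border the interstitium had DXZ 1 above and the other DXZ libraries below saline, as the interstitial collagens did. The 9 fibroblast markers summed to 73.0 to 127 CPM in saline and to 141, 43.4 and 36.5 CPM in DXZ 1 to 3. The 9 endothelial markers summed to 360.5 to 635 CPM in saline and to 695, 173 and 116 CPM in DXZ. The 9 pericyte and smooth muscle markers summed to 246 to 287 CPM in saline and to 317, 169 and 179 CPM in DXZ. No marker was at 0 in any library. Many single markers did not share the order of the sums. DXZ 1 lay within the saline range for the fibroblast markers Clec3b, Pi16, Scara5, Gas1 and Tcf21. It also did so for Cspg4, Acta2, Tagln, Myh11 and Cnn1 of pericytes and smooth muscle, and for the endothelial Pecam1, Tek and Ehd3. For Rgs5 every DXZ library lay below saline. The remaining markers of these lists had the order of the sums. Cspg4, a pericyte proteoglycan, stood at 39.1, 50.2 and 71.0 CPM in DXZ 1 to 3 against 23.8 to 45.3 CPM in saline.

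By edgeR's test with all libraries, 0 of 9 fibroblast, 0 of 9 endothelial and 0 of 9 pericyte and smooth muscle markers changed, with 2, 0 and 1 at an unadjusted p under 0.05. Over all tested genes 5.56% changed and 25.4% had an unadjusted p under 0.05. DESeq2 called 0, 0 and 1, and limma-voom 1, 0 and 1, all lower. Without DXZ 1, edgeR called 4, 9 and 3 of them lower and none higher, against 5.01% of all genes lower and 5.07% higher. The part of fibroblast, endothelial or pericyte RNA in the values of the interstitial collagens was not tested.

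The 9 macrophage markers summed to 83.4 to 185 CPM in saline and to 284, 101 and 65.7 CPM in DXZ 1 to 3, with 1 marker, Cd68, called higher, and without DXZ 1 a further 3 called lower. Over all genes 3.24% were called higher, and 5.01% were called lower without DXZ 1. Cd68 made up the largest share of the sum in DXZ 2, at 57.0 CPM against 7.97 to 16.9 CPM in saline. The mean log2 CPM of the 9, less the saline mean, was 1.22, -1.13 and -1.47 in DXZ 1 to 3. In saline it was -0.73 to 0.65, so this mean had the order of the interstitial collagens. Neutrophil markers summed to 3.96 to 9.16 CPM in saline and 17.9, 9.07 and 5.43 CPM in DXZ, and adipocyte markers to 7.76 to 244 CPM and 44.4, 135 and 79.2 CPM. Mesothelial markers summed to 98.6 to 153 CPM in saline and to 110, 88.7 and 109 CPM in DXZ. Lymphocyte markers summed to at most 3.61 CPM, with 7 of 8 at 0 in 1 or more libraries (all but Cd8a), and erythroid markers to at most 0.672 CPM, with Hbb-bt at 0 in all 7. Adrenal cortex markers summed to at most 5.11 CPM, with Cyp11b1 at 0 in all 7. The macrophage, neutrophil and lymphocyte sums were each highest in DXZ 1, as were the interstitial collagens. The lymphocyte sum was nearly the same in saline 1, at 3.44 CPM against 3.61 CPM in DXZ 1. In DXZ 2 these sums lay within the saline range, unlike the interstitial collagens.

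The summed proximal tubule markers were below, and the summed urothelial markers above, the saline range in all 3 DXZ libraries. The 8 proximal tubule markers summed to 3150 to 9079 CPM in saline and to 1479, 800.2 and 1336 CPM in DXZ 1 to 3, with 6 of 8 called lower, and 7 without DXZ 1. Over all genes 2.31% were called lower and 3.24% higher, and 5.01% and 5.07% without DXZ 1. The 6 urothelial markers summed to 34.5 to 179 CPM in saline and to 564, 593 and 467 CPM in DXZ, with Krt20 called higher in both fits. Krt20 made up most of that sum, at 33.0 to 172 CPM in saline and 525, 581 and 411 CPM in DXZ. Each of the other 5 urothelial markers overlapped between the groups and was not called, and Krt5 lay inside the saline range in all 3 DXZ libraries. Col18a1 was likewise higher in all DXZ libraries, and the part of epithelial cell types in its rise was not tested. Proximal tubule and podocyte markers, which define the labelled tissue, had counts in every library.

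**Figure D4:**
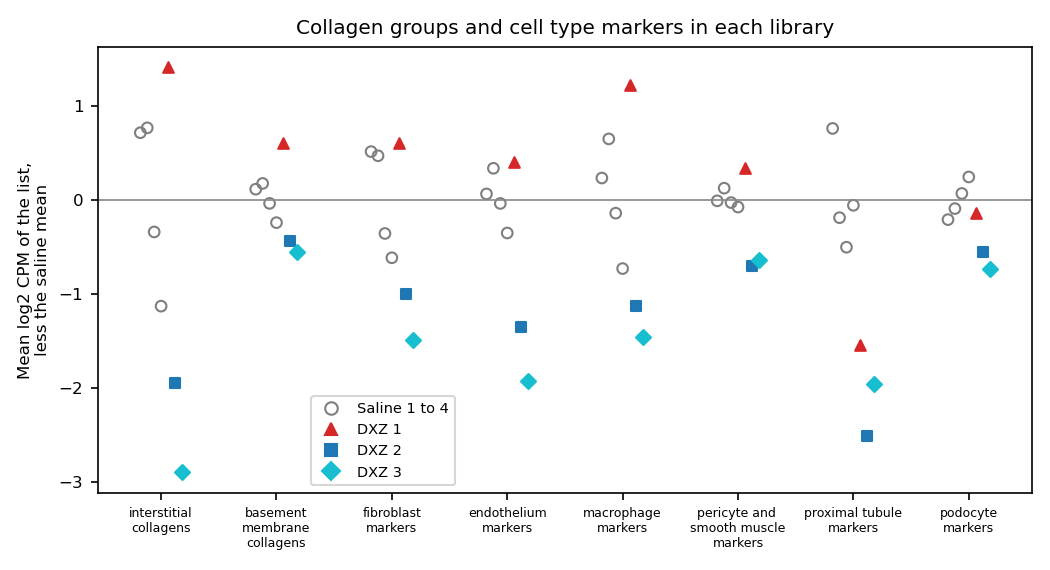
Mean log2 CPM (prior count 2) of the genes of 2 collagen groups and 6 cell type marker lists in each library, less the mean of the 4 saline libraries; open circles are saline 1 to 4 and filled symbols DXZ 1, 2 and 3. Interstitial collagens run from 1.41 in DXZ 1 to -2.90 in DXZ 3 with fibroblast markers in a like order (0.60 to -1.49). The mean of the basement membrane collagens stays between 0.60 and -0.55, also with DXZ 1 above and DXZ 2 and DXZ 3 below all saline libraries. Only 2 of the 6 single genes, Col4a2 and Col15a1, had that order.

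Other genes of the matrix were taken from 7 lists with 127 names, of which 125 were in the tables and 119 were tested. Over all tested genes edgeR called 5.56%, and 25.4% had an unadjusted p under 0.05. Without DXZ 1, edgeR called 10.1% of all genes. DESeq2 called more of all genes than edgeR did, so its counts stand against a higher share. Among 11 other collagens 0 passed edgeR's test, 0 had an unadjusted p under 0.05, and DESeq2 and limma-voom called 0. The lowest p was that of Col4a6, a collagen IV chain, with a log2 fold change of 0.84 (adjusted p = 0.308 by edgeR). Among 20 genes of collagen synthesis and processing 0 passed, 2 had an unadjusted p under 0.05, and DESeq2 and limma-voom called 0. Plod3, a lysyl hydroxylase, had the lowest p, with a log2 fold change of 0.26 (adjusted p = 0.136 by edgeR). The lists of collagens and of their processing enzymes thus held no called gene with all libraries, and 1 each without DXZ 1 (Col16a1 and P3h2, both lower).

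Among 19 basement membrane glycoproteins 1 rose and 0 fell by edgeR's test, and 7 had an unadjusted p under 0.05. Over all tested genes 3.24% rose, 2.31% fell and 25.4% had an unadjusted p under 0.05. The 1 call is thus no result about the list. DESeq2 called 5 of the 19 higher and limma-voom 2. Without DXZ 1, edgeR called 2 higher and 1 lower, the latter being Fbln1, fibulin 1, with a log2 fold change of -2.82 (adjusted p = 0.0374), against -0.37 with all libraries.

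Among 20 proteases and inhibitors 1 rose and 0 fell by edgeR's test, against 3.24% and 2.31% of all tested genes. Mmp14, a membrane-bound collagenase that activates the Mmp2 protein, stood at 20.8, 28.7, 25.0 and 22.3 CPM in saline 1 to 4 and at 39.8, 44.6 and 37.4 CPM in DXZ 1 to 3, and rose with a log2 fold change of 0.75 (SE 0.13, adjusted p = 0.0267 by edgeR). The groups did not overlap for Mmp14 and overlapped for Mmp2. DESeq2 called 4 of the 20 higher and limma-voom 1. Without DXZ 1, edgeR called Mmp14 higher (log2 fold change 0.76, adjusted p = 0.0298) and Reck, a membrane-anchored protease inhibitor, lower (log2 fold change -1.27, adjusted p = 0.0413).

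Among 18 genes of crosslinking, elastic fibres and proteoglycans 0 rose and 1 fell by edgeR's test, against 3.24% and 2.31% of all tested genes. DESeq2 called 1 higher and 1 lower, and limma-voom called 0. The gene that fell by edgeR was Aspn, asporin, a small leucine-rich protein of low level, at 1.55, 2.08, 1.04 and 2.76 CPM in saline 1 to 4 and 0.676, 0.302 and 0.354 CPM in DXZ 1 to 3. The log2 fold change was -2.04 (SE 0.48, adjusted p = 0.0486 by edgeR). Without DXZ 1, 6 of the 18 fell and the median of the list was -2.10, against -0.32 with all libraries. In the fit without DXZ 1, 5.01% of all genes fell.

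Among 23 genes of the transforming growth factor beta pathway and its response 0 passed edgeR's test, 7 had an unadjusted p under 0.05, DESeq2 called 2 higher and limma-voom 0. Without DXZ 1, edgeR called 1 lower, Ltbp4, which binds latent transforming growth factor beta (log2 fold change -2.01, adjusted p = 0.0351). Among 8 collagen receptors 0 passed edgeR's test, 3 had an unadjusted p under 0.05, DESeq2 called 2 higher and limma-voom 0. For both lists, the share of all tested genes with an unadjusted p under 0.05 was 25.4%. Itga2, the alpha 2 integrin, a collagen receptor, had the lowest p, with a log2 fold change of 2.58 (adjusted p = 0.0603 by edgeR), and without DXZ 1 edgeR called 0 of the 8, with 4 at an unadjusted p under 0.05.

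Mmp14 and Aspn each fell out of the calls when certain single libraries were removed. Mmp14 passed in 3 of 7 such fits and Aspn in 1, with adjusted p-values by edgeR of up to 0.0886 and 0.140.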

How the data were processed

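Per the labels, total kidney RNA was isolated by the Trizol method. The authors deposited a table of raw, whole-number counts for each gene in each library. The deposited FPKM values are those counts over gene length and 1 constant per library, and so add no separate measurement. The submitters' processing notes name HISAT2, StringTie and mm9, with no versions. Gene coordinates in the deposited tables match GENCODE M21 for 98.3% of shared identifiers (31 of 32 members) and were taken as GRCm38. The counting program and strand setting are not given in the sources used. The labels give no batch.

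The members and gene lists were chosen with earlier results of these data known. All 32 members are named. Of each other list, up to 3 genes of lowest adjusted p past the test are named, or the 1 of lowest p where none passed. A few genes that this rule would name are not reported here. Col16a1, P3h2, Fbln1, Reck, Ltbp4, Ptpro, Clic3, Thsd7a, Cd68 and Krt20 are named outside this rule because they make up small counts of calls. Podxl, Krt5 and single fibroblast, endothelial, pericyte and smooth muscle markers such as Cspg4 are named to describe marker sums. All of these were chosen after their values were seen.

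Counts were tested in R 4.3.3 with edgeR 4.0.16: filterByExpr, TMM scaling, and the quasi-likelihood F test of DXZ against saline, with Benjamini-Hochberg adjustment over 15351 genes and a threshold of 0.05. Each SE is the absolute log2 fold change over the square root of F. The procedure was tested on simulated data. Alternatives were median-of-ratios factors, no filter, 1 CPM in 3 libraries, robust dispersions, limma-voom with sample quality weights (limma 3.58.1), DESeq2 1.42.0, limma on log2 FPKM with a pseudocount of 1 or 0.1, the replicate number as a block, each library left out in turn, and saline 1 and DXZ 1 left out together. Total counts were 16058157 to 18133736 per library. Replicates of a group differed well beyond sampling noise, with a chi-square of 14.0 to 90.4 per degree of freedom, so the spread between libraries exceeded the counting error that this depth gives, and each was counted as its own sample. Sequences came from RefSeq windows on GRCm38.p6, and stretches inside annotated exons were left out.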

Additional observations from a re-analysis of the deposited data

How the results depend on the processing

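The 3 member calls (Col4a3, Col4a4 and Col18a1) held under median-of-ratios factors, both other filters, robust dispersions, limma-voom, DESeq2 and limma on log2 FPKM with either pseudocount, and 28 other members stayed uncalled there. DESeq2 called 2116 of all genes (1168 higher, 948 lower) against 853. Leaving out 1 library gave between 1 call (without DXZ 2) and 1574 (without DXZ 1) over all genes, with 374, 296, 426 and 4 without saline 1 to 4 and 141 without DXZ 3. Over the members this gave between 0 and 8 calls: 8 without DXZ 1, 1 without saline 1 (Col4a3) and 0 by edgeR without any other library. The interstitial median then ran from -2.64 (without DXZ 1) to 0.32 (without DXZ 3), and Col1a1 from -2.83 (adjusted p = 0.0464 by edgeR, without DXZ 1) to 0.73. With saline 1 and DXZ 1 both left out, 1332 genes and 8 members were called, and the medians were -2.40 for interstitial and -0.49 for basement membrane collagens. The causes were not tested.

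Same-numbered libraries had correlations of their deviations of 0.258, -0.0883 and 0.226. These values show no pairing by the labels' numbers, but so few pairs cannot exclude one. With the replicate number as a block, 85 genes and 0 members were called by edgeR. Col4a3, Col4a4 and Col18a1 then had adjusted p-values by edgeR of 0.139, 0.105 and 0.134 with unchanged directions. DXZ 1, 2 and 3 were most like saline 2, 4 and 4. Within the limits of 4 against 3 libraries, a p above the threshold does not show that levels were alike. Lum, Postn and Fap had few counts per library (3 to 63, 12 to 92 and 1 to 8).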

Other observations

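The following genes and ratios were chosen after their values were seen. Mmp7, matrilysin, an epithelial protease that cleaves basement membrane proteins, stood at 0.229 and 0.357 CPM in saline 1 and 2 and at 6.54 and 5.0 CPM in saline 3 and 4. In DXZ 1 to 3 it stood at 0.676, 3.93 and 4.96 CPM. It was thus low in the 3 libraries with the highest interstitial collagen levels and higher in the 4 others, with a log2 fold change between the groups of 0.07 (SE 1.08, adjusted p = 0.975 by edgeR). Ddr2, a receptor for fibrillar collagen on mesenchymal cells, had the opposite order, at 12.8, 13.0, 6.35 and 3.00 CPM in saline 1 to 4 and at 14.5, 2.42 and 0.827 CPM in DXZ 1 to 3.

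Other basement membrane genes lay above saline in all 3 DXZ libraries without passing the test with all libraries. Agrn, the heparan sulfate proteoglycan agrin, stood at 141, 215, 187 and 158 CPM in saline 1 to 4 and at 323, 249 and 269 CPM in DXZ 1 to 3 (log2 fold change 0.68, adjusted p = 0.0531 by edgeR). Lama5, the laminin chain of mature tubule and glomerular basement membrane, stood at 121, 128, 149.5 and 143 CPM and at 164, 193 and 216 CPM (a log2 difference of 0.50, adjusted p = 0.0587 by edgeR). Of the 19 tested basement membrane glycoproteins 5 lay above all saline libraries in all DXZ libraries, against 12.8% of all tested genes. Fras1, of the same list, lay below all saline libraries in all DXZ libraries, as did 11.3% of all tested genes. Its log2 fold change was -0.57 (adjusted p = 0.151 by edgeR).

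The ratio of Col4a1 to Col4a2 in FPKM, whose products join in 1 trimer, was 1.24, 1.42, 1.19 and 1.19 in the saline libraries. The DXZ libraries had 1.5, 1.54 and 1.5. The groups did not overlap, DXZ 1 included, though the genes themselves did not pass. The ratio of Col18a1 to Col4a1 ran from 0.934 to 1.30 over the saline libraries, against 1.28, 1.80 and 2.12 in DXZ 1 to 3.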
